A study of Mus musculus with 6 samples.

Results

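The 9 genes described here are Upk1a, Upk1b, Upk3b, Msln, Gpm6a, Lrrn4, Muc16, Bnc1 and Sema3d, uroplakins and genes of the mesothelial surface. They were picked by name, because earlier results of these data had shown several of them to be abundant in pulldowns directed at kidney tubules, and all 9 were found among the 48587 genes of the count table. Their abundance is therefore given as a description, without a test. RNA bound to HA-tagged ribosomes of neonatal mouse kidney was counted in 3 libraries from Foxp1-deficient animals (Cdh16Cre;Foxp1fl/fl;RiboTag) and 3 from littermate controls (Cdh16Cre;Foxp1fl/+;RiboTag). All 6 thus carried the Cre transgene, at least 1 floxed Foxp1 allele and the RiboTag allele, which makes Cre-expressing cells tag their ribosomes with HA. The Cre line used the promoter of the tubular cadherin Cdh16. As treatment, the Foxp1-deficient libraries were labelled with chronic acid load and the controls with vehicle, whereas the protocols mention no acid load, so genotype and treatment cannot be told apart. The labels do not state that each library of a group is a different animal. The p-values therefore reflect variation among these libraries only, and it may be technical.

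Mesothelium is the flat epithelium that covers the abdominal organs and lines the body cavities, and in development mesothelial cells also give rise to mesenchymal cells. Urothelium is the stratified epithelium of the renal pelvis, ureter and bladder, whose surface is covered by plaques of uroplakins. In those plaques the tetraspanins Upk1a and Upk1b pair with the single-span proteins Upk2 and Upk3a, and Upk3b can take the place of Upk3a. Upk1b and Upk3b are also expressed by mesothelium, as are Msln, encoding mesothelin, and Muc16, encoding the large membrane mucin that binds mesothelin.

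Total counts ranged from 9710048 to 18958196 for the Foxp1-deficient libraries and from 11264609 to 18206881 for the controls. Both libraries numbered 2 stood apart, with 14285 genes counted in Foxp1-deficient 2 and 13885 in control 2, against 18241 to 22190 in the other 4. The cell type label, kidney tubular cells, was not matched by tubule markers in most libraries. Cdh16 had 0.297, 1.96 and 48.5 CPM (counts scaled to a common library total) in Foxp1-deficient libraries 1, 2 and 3, against 0.35, 9.23 and 48.6 CPM in controls 1, 2 and 3. Foxp1 itself, counted over all exons and therefore only a partial check of the deletion, had 36.3, 9.17 and 33.7 CPM in Foxp1-deficient libraries, against 51.4, 26.0 and 40.5 CPM in controls. Foxp1 was lower in each Foxp1-deficient library than in the control of the same number. Its log2 fold change of -0.62 (SE 0.49) did not pass edgeR's quasi-likelihood test (adjusted p = 0.9998). With a block for replicate number it was -0.72 (SE 0.28) and did not pass that test either (unadjusted p = 0.0496, adjusted p = 0.853).

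Upk3b and Lrrn4 are commonly used together as mesothelial markers, and their promoters are shown because the levels of these 2 genes parted between libraries, as described further on. Upk3b lies on chromosome 5 from 136038496 to 136046487 on the plus strand, and Lrrn4 on chromosome 2 from 132868305 to 132880891 on the minus strand (mm10). The windows run 5′ to 3′ on the strand of the gene, from 250 bases before the annotated start to 50 after it, and were taken from RefSeq (GRCm38.p6) as chr5:136038246-136038545 and chr2:132880813-132881112. Capitals mark the letters GGAATG, the core bound by TEAD factors, or their reverse complement CATTCC.
Upk3b: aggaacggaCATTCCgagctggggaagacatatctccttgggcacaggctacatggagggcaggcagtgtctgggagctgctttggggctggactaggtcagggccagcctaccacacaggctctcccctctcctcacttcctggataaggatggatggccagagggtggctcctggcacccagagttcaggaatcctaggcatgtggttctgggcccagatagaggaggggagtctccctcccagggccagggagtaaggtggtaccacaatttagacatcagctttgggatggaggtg
Lrrn4: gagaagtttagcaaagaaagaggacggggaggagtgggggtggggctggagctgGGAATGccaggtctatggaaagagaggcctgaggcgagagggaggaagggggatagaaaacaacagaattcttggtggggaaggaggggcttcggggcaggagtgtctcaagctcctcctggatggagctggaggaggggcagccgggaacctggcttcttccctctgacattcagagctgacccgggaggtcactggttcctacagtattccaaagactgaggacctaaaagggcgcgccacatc
The match starts at base 10 of the Upk3b window and base 55 of the Lrrn4 window. The letters occurred in 3 of 8 member windows, the third being 1 of 2 windows of Gpm6a, and in 14.7% of 32851 mouse promoter windows of the same length. The forkhead motif TGTTTAC, or its reverse complement GTAAACA, was in 0 of the 8 windows and in 3.65% of all windows. A TATA box (TATAAA or TTTATA) was in 1 of the 8, a window of Gpm6a, and in 13.6% of all. A GC box (GGGCGG or CCGCCC) was in 2 of the 8, belonging to Bnc1 and Gpm6a, and in 35.7% of all. No 2 matches overlapped. Windows for 7 of the 9 genes were found by symbol. The annotated starts used for the windows are those of RefSeq, and for Lrrn4 and Gpm6a they differ from the ends of the counted genes. The Gpm6a window with the TEAD letters and the GC box begins at 54779184, far upstream of the counted gene, which begins at 54954843. A match of letters is not a binding site.

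Scaled to exon length, 3 genes stood at the top of the 9. Median levels over the 6 libraries were 264 CPM per kb for Upk3b, 244 for Msln and 219 for Upk1b. Ranges over libraries were 169 to 604 CPM per kb for Upk3b, 86.6 to 609 for Msln and 148 to 388 for Upk1b, so the order among them is within their spread. Ranked by CPM per kb among all genes of a library, Upk3b stood between places 119 and 276, Msln between 90 and 589, and Upk1b between 99 and 411. Lrrn4, which encodes a leucine-rich repeat membrane protein, followed with a median of 106 CPM per kb and a range of 18.8 to 183. Gpm6a, encoding a membrane glycoprotein of the proteolipid family, had a median of 55.4 CPM per kb. Bnc1, a zinc-finger transcription factor gene named basonuclin, had 54.3, and Sema3d, a gene for a secreted semaphorin, 29.3. The ranges of these last 4 genes overlapped each other, and the highest value of Lrrn4 was above the lowest of Upk1b. Muc16 and Upk1a were far lower, with medians of 0.573 and 0.251 CPM per kb. Their highest values, 2.11 and 1.09, lay under the lowest value of the other 7 genes, 5.40 CPM per kb for Sema3d.

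**Figure D1:**
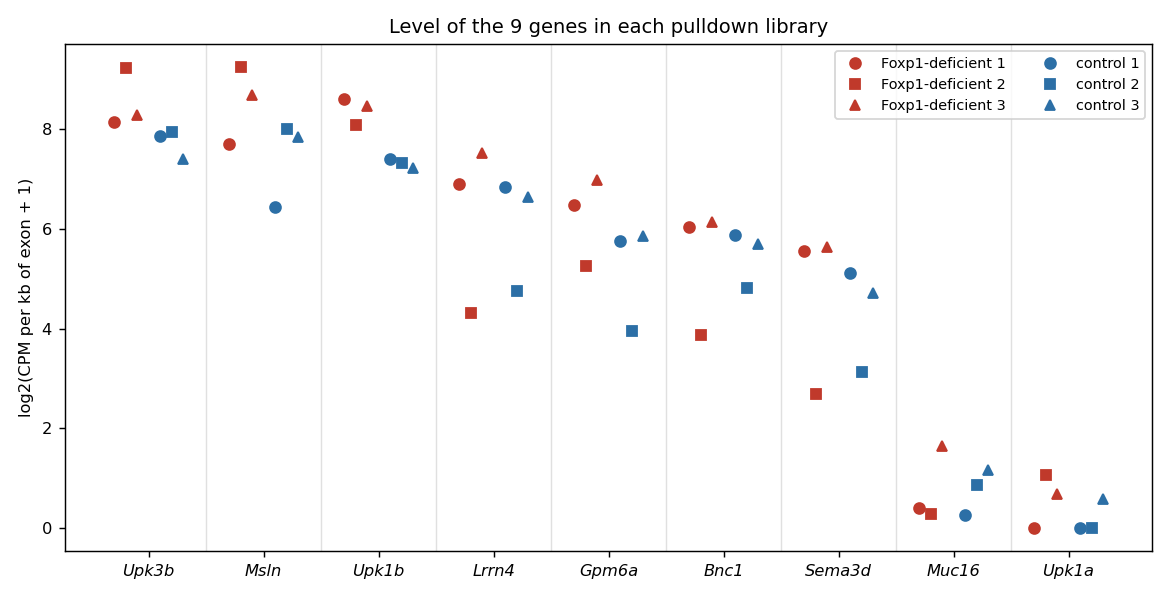
Level of each gene, as log2 of CPM per kb of exon plus 1 (y axis), in 3 Foxp1-deficient libraries (red) and 3 control libraries (blue), with circles, squares and triangles for libraries numbered 1, 2 and 3. Genes are ordered by median; the squares of Lrrn4, Gpm6a, Bnc1 and Sema3d lie below their circles and triangles in both groups, and all 3 red points of Upk1b lie above its blue points.

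Among the uroplakins, Upk1b had 686, 477 and 623 CPM in Foxp1-deficient libraries 1, 2 and 3, against 299, 284 and 262 CPM in controls 1, 2 and 3. Each Foxp1-deficient library was above each control. Upk3b had 997, 2133 and 1103 CPM in Foxp1-deficient libraries, against 826, 870.2 and 596 CPM in controls. Its groups were also apart on library totals, as were those of 2.1% of genes tested in the higher direction and 2.07% in the lower, and with TMM scaling (a correction of library totals for composition) they overlapped, at 948 CPM in Foxp1-deficient 1 and 1030 in control 2. Upk1a, the tetraspanin that pairs with Upk2 in bladder plaques, had 0, 15 and 16 counts in Foxp1-deficient libraries, against 0, 0 and 13 counts in controls. The 3 libraries without a count do not show absence, since a count of 0 allows up to 3 counts, or 0.178 CPM in Foxp1-deficient 1, 0.210 CPM in control 1 and 0.266 CPM in control 2. These limits cover counting error only.

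The other urothelial genes were near or at 0. Upk2 had at most 0.105 CPM and Upk3a at most 0.33 CPM in any library, and both were named for their part in the plaques after their values were seen. The summed level of 11 urothelial genes that are no members, Upk2 and Upk3a among them, was 8.92 to 10.3 CPM in Foxp1-deficient libraries and 3.46 to 10.2 CPM in controls. By contrast Upk1b alone had at least 262 CPM in each library. The highest of the 11 were Krt20, a keratin gene of the urothelial surface cells, Elf3, Pparg and Grhl3. Krt20 reached 5.17 CPM and Elf3 5.77 CPM, both in Foxp1-deficient libraries.

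Msln had 441, 1288 and 874 CPM in Foxp1-deficient libraries 1, 2 and 3, against 183, 546 and 484 CPM in controls. The groups overlapped, since Foxp1-deficient 1 lay below controls 2 and 3, but each Foxp1-deficient library was above the control of its own number. Muc16 had 8.44, 5.66 and 55.6 CPM in Foxp1-deficient libraries, against 4.97, 21.7 and 32.6 CPM in controls. Its 2 highest libraries were those numbered 3 and the groups overlapped widely. Per length, Muc16 reached at most 0.00541 of the level of Msln, its binding partner, in any library.

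Gpm6a had 285, 119.8 and 402 CPM in Foxp1-deficient libraries 1, 2 and 3, against 172, 46.4 and 184 CPM in controls. Lrrn4 had 442, 69.7 and 679 CPM in Foxp1-deficient libraries, against 423, 96.9 and 366 CPM in controls. Both genes were lowest in the libraries numbered 2 of either group, and only for Gpm6a was each Foxp1-deficient library above its equally numbered control. Bnc1 had 299, 63.2 and 322 CPM in Foxp1-deficient libraries, against 269, 126 and 236 CPM in controls. Sema3d had 396, 46.4 and 421 CPM in Foxp1-deficient libraries, against 288, 66.6 and 216 CPM in controls. These 2 genes again had their lowest values in the libraries numbered 2, and there the Foxp1-deficient library was below its control.

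The 9 genes did not vary as 1 block across the libraries. Lrrn4, Bnc1 and Sema3d went together, with Pearson's r of 0.97 to 0.99 between any 2 of them on log2(CPM + 1) over the 6 libraries. Upk3b and Msln had r = 0.68 with each other, and r of -0.67 to -0.44 with Lrrn4, Bnc1 and Sema3d. These are descriptions over 6 points, which share library depth and the split between the numbers. The ratio of Lrrn4 to Upk3b per length was 0.421 and 0.585 in Foxp1-deficient 1 and 3, and 0.487 and 0.584 in controls 1 and 3. It was 0.0311 in Foxp1-deficient 2 and 0.106 in control 2. The ratio of Sema3d to Upk3b was 0.143 to 0.163 in the 4 libraries, against 0.00895 in Foxp1-deficient 2 and 0.0314 in control 2. Msln to Upk3b varied in another way, at 0.739, 1.01 and 1.32 in Foxp1-deficient libraries 1, 2 and 3, against 0.37, 1.05 and 1.35 in controls.

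The split between the libraries numbered 2 and the rest went with exon length over all genes. Among genes averaging at least 10 CPM, divided by length into 5 classes of nearly equal size, the median log2 ratio of the libraries numbered 2 to the other 4 was 0.50 in the shortest class, then -0.41, -0.67 and -0.95, and -1.23 in the longest. Msln and Upk1b, of 2114 and 1769 bases, belong to the shortest class, with log2 ratios of 0.89 and -0.30. Upk3b and Gpm6a, of 3530 and 3215 bases, belong to the next class and had ratios of 0.77 and -1.64, on opposite sides of its median. Lrrn4 and Bnc1, of 3715 and 4646 bases, had -2.51 and -1.56 in the middle class. Sema3d, of 8595 bases, had -2.53, and Muc16, of 26350 bases, -0.84, both in the longest class. In 4 of the 9 genes, Gpm6a, Lrrn4, Bnc1 and Sema3d, both libraries numbered 2 lay below the other 4, which was also so for 44.4% of the 14311 genes tested, and in 0 of the 9 both lay above, against 17.1% of genes tested. The part of exon length in the levels of these genes was not tested.

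**Figure D2:**
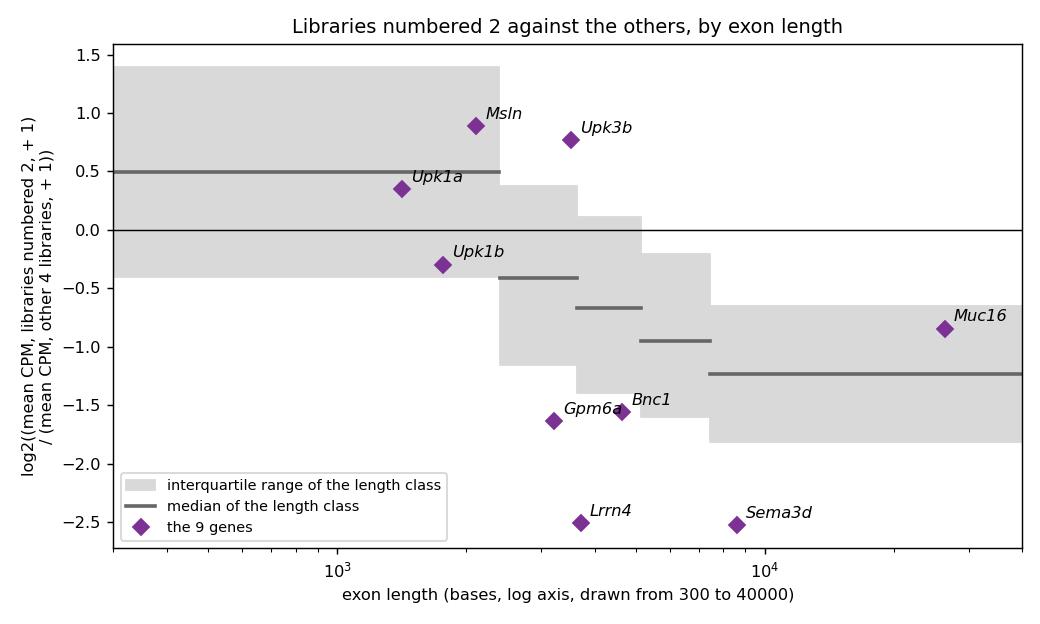
Log2 ratio of mean CPM plus 1 in both libraries numbered 2 to that in the other 4 libraries (y axis) against exon length in bases (x axis, log scale). Grey bands and bars give the interquartile range and median of all genes averaging at least 10 CPM in each of 5 length classes, falling from 0.50 to -1.23, and diamonds the 9 genes, with Lrrn4 and Sema3d lowest and Msln and Upk3b highest.

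Between genotypes, Upk1b, Msln, Gpm6a and Upk3b were about 2-fold higher in Foxp1-deficient libraries, and none of the 9 genes passed the test over all genes. On simulated counts this edgeR test called none of the changes put in, so a gene that did not pass may still differ. Upk1b averaged 595 ± 56.0 CPM in Foxp1-deficient libraries and 284 ± 52.0 CPM in controls (SD, n = 3 each, TMM-scaled), with a log2 fold change of 1.07 (SE 0.37). Its unadjusted p was 0.021 and its adjusted p 0.9998 in edgeR's quasi-likelihood test with Benjamini-Hochberg adjustment. Msln averaged 924 ± 605 CPM in Foxp1-deficient libraries and 416 ± 237 CPM in controls, with a log2 fold change of 1.15 (SE 0.67). Gpm6a averaged 256 ± 101 CPM in Foxp1-deficient libraries and 127 ± 62.4 CPM in controls, with a log2 fold change of 1.01 (SE 0.55). Upk3b averaged 1515 ± 974 CPM in Foxp1-deficient libraries and 780.2 ± 251 CPM in controls, with a log2 fold change of 0.96 (SE 0.57). For these 3 genes the difference was within the spread between libraries (unadjusted p of 0.105 to 0.133, adjusted p = 0.9998, edgeR). Without Foxp1-deficient 2 the log2 fold change of Upk3b was 0.29 and that of Msln 0.51, whereas that of Upk1b was 1.08 and that of Gpm6a 1.29.

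For the other 5 genes the difference was smaller than its error. The log2 fold changes were 0.56 (SE 0.75) for Sema3d, 0.38 (SE 0.75) for Lrrn4, 0.10 (SE 0.94) for Muc16 and 0.07 (SE 0.55) for Bnc1, with unadjusted p of 0.483 to 0.92 in edgeR's test. Upk1a had 1.92 (SE 2.19) on its few counts. With a block for replicate number, Muc16 and Bnc1 turned to -0.06 and -0.11. All 9 genes passed the filter on low counts, and all 9 had a fold change above 0, against 53.6% of the 14311 genes tested. Their median was 0.96, against 0.03 over all genes tested. With the block 7 of 9 were above 0, against 49.5% of genes. A fold change of at least 2-fold in the higher direction was found for 4 of the 9 (Upk1a, Upk1b, Msln and Gpm6a), against 5.56% of genes, and with the block for 4 of the 9, against 7.31%. The groups did not overlap in 1 of the 9 with TMM scaling, Upk1b, where 2.64% of genes were so in the higher direction and 2.11% in the lower. Fewer cells of a type and less RNA per cell cannot be told apart in such libraries.

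Over all genes edgeR called 0 genes higher (0%) and 0 lower (0%) at an adjusted p under 0.05, with 103 at an unadjusted p under 0.05 (0.72%), and DESeq2 called 6 (0.0419% higher, 0% lower), none of them a member. Libraries of equal number deviated together from their group means, and a fit that took this number as a block gave smaller errors for Upk1b, Msln, Gpm6a and Upk3b. In that fit Upk1b had a log2 fold change of 1.08 (SE 0.15), Msln 1.13 (SE 0.16), Gpm6a 1.08 (SE 0.18) and Upk3b 0.83 (SE 0.24). These 4 genes had an unadjusted p under 0.05 with the block, against 1 of 9 without it, where 5.32% of genes had one with the block (3.07% higher and 2.26% lower) and 0.72% without (0.545% higher and 0.175% lower). None passed the adjustment in edgeR with the block (adjusted p of 0.359 for Upk1b and Msln, 0.45 for Gpm6a and 0.853 for Upk3b). DESeq2 with the block called all 4 higher (adjusted p = 1.08e-08, 1.22e-08, 4.43e-05 and 0.0208 for Upk1b, Msln, Gpm6a and Upk3b), where it called 0.811% of genes higher and 0.384% lower. On simulated counts that fit made more false calls than its threshold allows. DESeq2 without the block and limma-voom with the block also did, to a lesser degree, whereas edgeR with the block did not. The limma-voom fit with the block called 0.0559% of genes higher, none of them a member. Over 19 alternatives the adjusted p of each of these 4 genes ran up to 0.999999 (edgeR).

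Within pairs of equally numbered libraries, 4 of the 9 genes were higher in the Foxp1-deficient library of all 3 pairs with TMM scaling, against 16.5% of genes tested. They were Upk1b, Upk3b, Msln and Gpm6a. On log2(CPM + 1), Upk1b differed by 1.19, 0.75 and 1.25 in pairs 1, 2 and 3, and Msln by 1.27, 1.24 and 0.85. Gpm6a differed by 0.73, 1.35 and 1.12, and Upk3b by 0.27, 1.29 and 0.89. Lrrn4 differed by 0.06, -0.47 and 0.89, Bnc1 by 0.15, -0.99 and 0.44, Sema3d by 0.46, -0.51 and 0.96, and Muc16 by 0.66, -1.77 and 0.75. In these last 4 genes pair 2 went against pairs 1 and 3. Leaving out both libraries numbered 2, with the block, gave log2 fold changes above 0 for all 9 genes. Upk1b then passed edgeR's test at 1.22 (adjusted p = 0.0376), where 0.183% of 15303 genes were called higher and 0.0131% lower, and Msln and Gpm6a, at 1.05 and 0.92, did not (adjusted p = 0.0758 and 0.076). The adjusted p of Upk1b over 19 alternatives ran from 1.08e-08 (DESeq2) to 0.999999 (edgeR). The same 4 libraries without the block gave a log2 fold change of 1.22 for Upk1b, which did not pass edgeR's test (adjusted p = 0.999978).

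**Figure D3:**
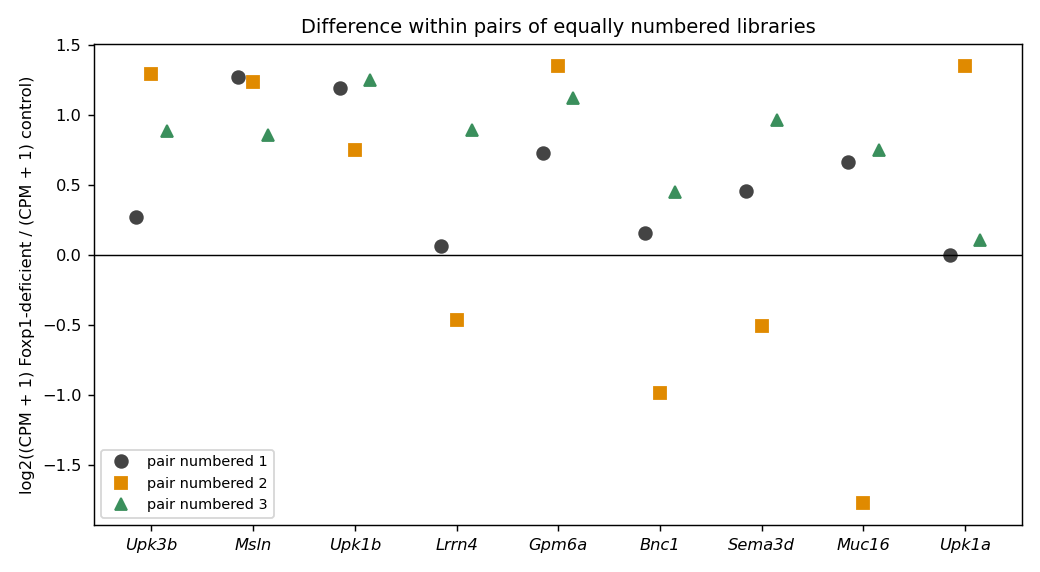
Difference within each pair of equally numbered libraries, as log2 of the ratio of CPM plus 1, Foxp1-deficient over control (y axis), for the 9 genes. All 3 points lie above 0 for Upk3b, Msln, Upk1b and Gpm6a, whereas the square of pair 2 lies below 0 for Lrrn4, Bnc1, Sema3d and Muc16.

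Replicate number and genotype took up different shares of the variation in each gene. Genotype accounted for 91.1% of the sum of squares of log2(CPM + 1) in Upk1b and replicate number for 4.86%. For Upk3b the shares were 53.1% and 32.9%, for Msln 40.9% and 57.9%, and for Gpm6a 29.6% and 68.7%. For Lrrn4, Bnc1, Sema3d and Muc16 genotype took 0.241% to 1.51% and number 76.8% to 94.2%. These shares are descriptions, since some of the variation would fall to any split of 6 libraries.

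Other mesothelial genes ranged from near 0 to 2023 CPM, and more of them were higher than lower in Foxp1-deficient libraries by the sign of the fold change. Of 14 such genes, 13 passed the filter on low counts, 10 of them above 0 and 3 below 0 in fold change and 0 past edgeR's test over all genes. Their median log2 fold change was 1.32, against 0.03 over all genes tested, and 6 of the 13 had an unadjusted p under 0.05, 5 higher and 1 lower, against 0.545% and 0.175% of genes. Without the 4 keratins of the list, 6 of 9 were above 0 and 3 below, with a median of 0.17. Of these 9, 4 were higher and 1 lower at an unadjusted p under 0.05 in edgeR's test. Among the 4 keratins, 1 was higher and 0 lower at that threshold. The keratin gene Krt7 had 338, 2023 and 619 CPM in Foxp1-deficient libraries 1, 2 and 3, against 171, 693 and 321 CPM in controls. Krt19 had 459, 1448 and 269 CPM in Foxp1-deficient libraries, against 186, 395 and 120.4 CPM in controls. Krt8 had 673, 601 and 446 CPM in Foxp1-deficient libraries, against 194.8, 272 and 227 CPM in controls. Its groups did not overlap, as for 2.1% of genes tested in the higher direction on library totals. Krt18, whose protein pairs with that of Krt8, had 286, 491 and 213 CPM in Foxp1-deficient libraries, against 129, 384 and 160.0 CPM in controls. These keratins are also expressed by tubule and urothelial cells.

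The other mesothelial genes were named after their values were seen. Pdpn, encoding podoplanin, and Ildr2 had log2 fold changes of 0.17 (SE 0.50) and 0.06 (SE 0.51), and Nkain4 had 2.30 (SE 0.93) on 5.88 to 77.3 CPM. Cldn15, a claudin gene, had 35.4, 211 and 129 CPM in Foxp1-deficient libraries, against 17.9, 46.0 and 48.9 CPM in controls. Pkhd1l1 had 181, 85.2 and 393 CPM in Foxp1-deficient libraries, against 84.5, 33.1 and 129.9 CPM in controls. Both were higher in the Foxp1-deficient library of each pair. The 3 lower genes were Wt1, Aldh1a2 and Rspo1. Wt1, a transcription factor gene of mesothelium, podocytes and nephron progenitors, had 138, 69.7 and 157 CPM in Foxp1-deficient libraries, against 192, 53.7 and 168 CPM in controls. Aldh1a2, encoding a retinoic acid synthesizing enzyme, had a log2 fold change of -0.64 (SE 0.39). Rspo1, encoding an enhancer of Wnt signalling, had 19.0, 14.0 and 45.9 CPM in Foxp1-deficient libraries, against 49.0, 45.8 and 70.7 CPM in controls. With TMM scaling the groups of Aldh1a2 and of Rspo1 did not overlap, as for 2.11% of genes tested in the lower direction. Calb2, encoding calretinin, had at most 0.84 CPM in any library and could not be tested.

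Summed over the 9 genes, the level was 3554, 4204 and 4481 CPM in Foxp1-deficient libraries 1, 2 and 3, against 2465, 2058 and 2377 CPM in controls 1, 2 and 3. That is 0.355% to 0.448% of all counts in Foxp1-deficient libraries and 0.206% to 0.247% in controls. Upk3b and Msln held most of the sum in the libraries numbered 2. The groups of sums did not overlap with TMM scaling either, at 3381 to 5204 CPM in Foxp1-deficient libraries and 2103 to 2435 CPM in controls. Summed over the 14 other mesothelial genes, the level was 2692 to 5267 CPM in Foxp1-deficient libraries and 1663 to 2267 CPM in controls, and these sums overlapped with TMM scaling, at 2560 CPM in Foxp1-deficient 1 and 2683 CPM in control 2. The 4 keratins carried much of them. Without the keratins, a split made after the values were seen, the other 10 genes summed to 935, 704 and 1457 CPM in Foxp1-deficient libraries 1, 2 and 3, against 981, 523 and 1028 CPM in controls. These sums overlapped between the groups, and in pair 1 the Foxp1-deficient library was the lower.

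Lists of other cell types are given beside these sums, and their part in the differences was not tested. The 12 stromal and capsule genes summed to 3552 to 23111 CPM in Foxp1-deficient libraries and 6107 to 22072 CPM in controls, led by the collagen genes Col1a1, Col1a2 and Col3a1, with the lowest sums in the libraries numbered 2. Of 11 tested, 6 were higher and 5 lower. The 5 cardiac muscle genes summed to 1145 to 3292 CPM in Foxp1-deficient libraries and 1319 to 5690 CPM in controls. Among them Myl7, an atrial myosin light chain gene, had 446, 2878 and 719 CPM in Foxp1-deficient libraries, against 688, 4363 and 680.1 CPM in controls. Actc1, encoding cardiac actin, had 672, 61.5 and 77.4 CPM in Foxp1-deficient libraries, against 963, 213 and 114.7 CPM in controls. Tnnt2, encoding cardiac troponin T, had 338, 339 and 313 CPM in Foxp1-deficient libraries, against 377, 1098 and 519 CPM in controls. In each pair both were below their control, and neither passed edgeR's test. Myh6 was at most 34.8 CPM, and Nppa, named after its values were seen, at most 5.36 CPM. The 5 leukocyte genes summed to 45.8 to 396 CPM in Foxp1-deficient libraries and 199 to 872 CPM in controls, and all 5 were lower by the sign of the fold change. Among 9 genes of gonad and adrenal, Gata4 had a log2 fold change of -0.17 and averaged 168 ± 44.5 CPM in Foxp1-deficient libraries and 189 ± 43.2 CPM in controls (SD, n = 3 each, TMM-scaled). Lhx9, a transcription factor gene of the early gonad, had 43.0, 13.7 and 17.7 CPM in Foxp1-deficient libraries, against 15.5, 11.6 and 13.8 CPM in controls, higher in each pair with a log2 fold change of 0.85 (SE 0.50). Star, a gene of steroid-producing cells, had 1.37 to 2.53 CPM in Foxp1-deficient libraries and 4.01 to 5.24 CPM in controls. Nr5a1, Cyp11b1 and Dazl, named because they were at 0, had no count in any of the 6 libraries.

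The remaining lists had 0 genes past edgeR's test each. The 5 podocyte genes summed to 187 to 406 CPM in Foxp1-deficient libraries and 171 to 452 CPM in controls. All 5 were below 0 in fold change, with a median of -0.47. Of 6 endothelial genes, 5 were below 0 and 1 above, with a median of -1.11, and -1.68 with the block. They summed to 97.0 to 173 CPM in Foxp1-deficient libraries and 55.0 to 167 CPM in controls, most of it from Tek, the gene above 0. The 5 nephron progenitor genes summed to 11.2 to 12.2 CPM in Foxp1-deficient libraries and 16.0 to 22.2 CPM in controls, without overlap. Most of each sum was Crym, at 7.65 to 8.26 CPM in Foxp1-deficient libraries and 10.0 to 22.2 CPM in controls. No other gene of the list was above 3.19 CPM in any library. The groups of Crym were apart on library totals, as for 2.07% of genes tested in the lower direction, and overlapped with TMM scaling. The 6 erythroid genes summed to 683 to 1170 CPM in Foxp1-deficient libraries and 310.2 to 1004 CPM in controls.

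Tubule genes are given library by library. The 8 proximal tubule genes summed to 70.5, 119.9 and 582 CPM in Foxp1-deficient libraries 1, 2 and 3, against 40.0, 59.5 and 442 CPM in controls. The 6 genes of thick limb and distal tubule summed to 1.19, 1.65 and 216 CPM in Foxp1-deficient libraries, against 0, 1.24 and 186 CPM in controls. Both sums were highest in the libraries numbered 3. The proximal tubule sum was higher in the Foxp1-deficient library of all 3 pairs, the direction of Upk1b, Upk3b, Msln and Gpm6a. In Foxp1-deficient 1 and 2 most of that sum came from 1 gene, Lrp2. In pair 2 Slc34a1, Slc22a6 and Cubn were lower in the Foxp1-deficient library, at 3.09, 0 and 0 CPM against 9.68, 6.13 and 1.51 CPM. Aqp1, Slc27a2 and Slc5a2 were higher there, at 14.9, 4.02 and 0.412 CPM against 12.0, 2.75 and 0 CPM. The sum of thick limb and distal tubule was also higher in the Foxp1-deficient library of each pair, but on few counts in pairs 1 and 2. In pair 2 it was 16 counts of Pvalb in the Foxp1-deficient library against 14 counts of Slc12a1 in the control. Lrp2, encoding the endocytic receptor megalin, had 55.2, 97.4 and 203 CPM in Foxp1-deficient libraries, against 34.9, 27.4 and 114.6 CPM in controls. Its log2 fold change was 1.06 (SE 0.63) and did not pass edgeR's test (adjusted p = 0.9998). The 9 collecting duct genes summed to 10.2 to 128 CPM in Foxp1-deficient libraries and 16.8 to 95.2 CPM in controls. The part of tubule cells in the differences of the 9 genes was not tested.

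**Figure D4:**
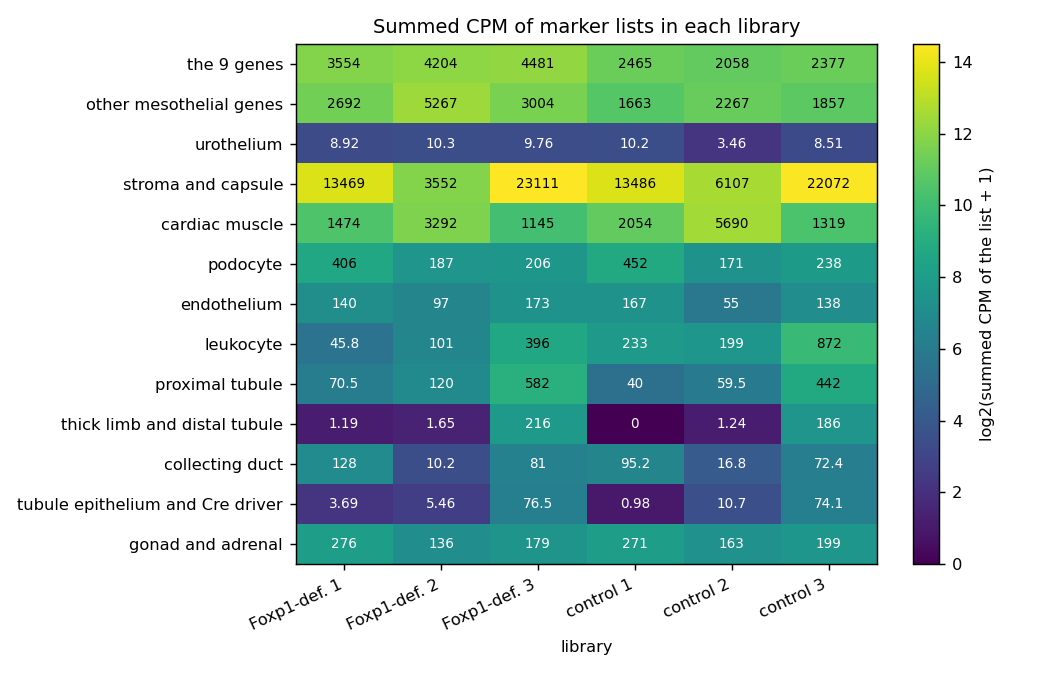
Summed CPM of marker lists (rows) in each library (columns, 3 Foxp1-deficient then 3 controls), with the sum printed in each cell and colour for log2 of the sum plus 1. The 9 genes and the other mesothelial genes have 1663 CPM or more in each library, the urothelial list 10.3 CPM or less, and the lists of proximal tubule and thick limb are highest in the libraries numbered 3.

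The genes most like 3 members in pattern were ranked by Pearson's r of log2(CPM + 1) over the 6 libraries, among 9015 genes averaging at least 10 CPM. With so many genes and 6 points, high values are to be found for nearly any pattern. For Upk3b they were Scrn1 (r = 0.99), Igf2os (r = 0.99), Amer1 (r = 0.99), Prkcz (r = 0.98) and Ercc4 (r = 0.97). For Msln they were Rarg, a retinoic acid receptor gene (r = 0.99), Myl12b (r = 0.99), Rbm28 (r = 0.98), Plbd2 (r = 0.98) and Cldn15 (r = 0.97). For Upk1b they were Tpcn1 (r = 0.98), Ptrf, encoding a caveola coat protein (r = 0.98), P3h4 (r = 0.98), Arf2 (r = 0.96) and AI464131 (r = 0.96). Of these 15 genes, Cldn15 alone was on the list of other mesothelial genes.

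None of the 9 genes shared exon bases with another annotated gene except Bnc1, of which 98 bases lie under the oppositely oriented 4833418N17Rik, a gene with a mean of 19.7 counts per library. Upk1b lies on chromosome 16 from 38773184 to 38800203, Msln on chromosome 17 from 25748614 to 25754327, and Gpm6a on chromosome 8 from 54954843 to 55060871 (mm10). Bnc1 lies on chromosome 7 from 81966672 to 81992292 and Sema3d on chromosome 5 from 12383385 to 12588948. Muc16 lies on chromosome 9 from 18495455 to 18674530 and Upk1a on chromosome 7 from 30603092 to 30612847.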

How the data were processed

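The authors deposited raw fragment counts per gene symbol. Read pairs over exons were counted by featureCounts 1.5.1, using annotation 86 of mm10, per the file headers. The command sets no strand and does not count multi-mapping reads, so antisense genes and near-identical copies cannot be separated. The exon length in bases, another column of the authors' deposited table, was used for CPM per kb. STAR, Trimmomatic, FastQC, DESeq2, SAMtools and deepTools appear without roles or versions, per the submitters' processing notes, and alignment settings were not given in the sources used here.

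Groups and replicate numbers were taken from sample titles. Counts of 6 libraries, with totals of 9710048 to 18958196, were tested with edgeR 4.0.16 (R 4.3.3), using TMM, filterByExpr and the quasi-likelihood F test, two-sided, with Benjamini-Hochberg adjustment over the 14311 genes tested. CPM given per library use library totals. SE is the fold change over the root of F. DESeq2 1.42.0, limma-voom (limma 3.58.1), other size factors, other filters, a replicate block and leaving out libraries were alternatives. A count of 0 allows up to 3 counts.

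Deviations from group means of equally numbered libraries correlated at 0.54, 0.49 and 0.59 in pairs 1, 2 and 3 over the genes tested, so equal numbers were treated as pairs. This rests on the data and not on a statement in the labels. In a test on simulated counts edgeR without the block called none of the changes put in. The members, the gene lists and the tests were chosen with earlier results of these data known. Named genes are the 9 members, up to 4 genes of highest mean CPM from a list, genes of a list at 0 in all libraries, and the 5 genes closest in pattern to Upk3b, Msln and Upk1b. Other genes were named after their values were seen. Promoter windows are from RefSeq.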

Additional observations from a re-analysis of the deposited data

How the results depend on the processing

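Upk1b, Upk3b, Msln, Gpm6a and Sema3d kept a fold change above 0 in all 19 alternatives, with ranges over the 20 settings of 0.94 to 1.22, 0.29 to 1.19, 0.51 to 1.61, 0.65 to 1.29 and 0.20 to 1.04 on the log2 scale. Genes called over all genes numbered 0 in edgeR, 6 with DESeq2, 171 with DESeq2 and a replicate block, 8 with limma-voom and a block, 30 in edgeR with a block without both libraries numbered 2, and 244 with limma-voom, quality weights and a block, an alternative chosen after seeing the data. With each library left out in turn edgeR called 0. The replicate block in edgeR left the count at 0 and changed no other call among the 9 genes. The last alternative called Upk1b, Msln and Gpm6a (adjusted p = 7.83e-04, 0.00283 and 0.00413, limma). The median fold change of the 9 genes, 0.96, was 0.67 with limma-voom and quality weights, 0.65 with these and a block, and 0.68 and 0.70 without both libraries numbered 2, without and with a block. It ran from 0.65 to 0.96 with a library left out. The number of the 9 above 0 ran from 6 to 9 over the settings. Muc16 turned to -0.055 with a block in edgeR and -0.063 in DESeq2, and Bnc1 to -0.11, -0.11 and -0.021 with a block in edgeR, DESeq2 and limma-voom. With a library left out Bnc1 ran from -0.20 to 0.47, Muc16 from -1.40 to 0.52 and Lrrn4 from -0.15 to 0.85. The lowest values of Muc16 and Lrrn4 came without Foxp1-deficient 3. The cause was not tested. Upk1a, left out by the stricter filter, went up to 6.64 without control 3, the only control with counts. Counted among genes with at least 1 CPM, its percentile was 20.8 in the single library that reached it. Upk1a, with at most 16 counts in a library, is limited by depth.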

Other observations

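Of 16 relatives and partners of the 9 genes, 14 passed the filter on low counts, 7 of them above 0 and 7 below 0 in fold change, with a median log2 fold change near 0 and 0 past edgeR's test over all genes. Nrp1 and Nrp2, encoding neuropilin receptors for class 3 semaphorins, had 69.0 to 151 and 22.2 to 169 CPM in Foxp1-deficient libraries, and 70.7 to 163 and 42.4 to 154 CPM in controls. Sema3c, encoding another secreted semaphorin, had 49.8, 37.6 and 50.3 CPM in Foxp1-deficient libraries 1, 2 and 3, against 24.2, 12.9 and 24.7 CPM in controls, so its groups did not overlap. Its log2 fold change was 1.20 (SE 0.35, unadjusted p = 0.0099, adjusted p = 0.9998, edgeR's quasi-likelihood test), where 2.64% of genes did not overlap in that direction with TMM scaling. Sema3e had 264, 24.3 and 176 CPM in Foxp1-deficient libraries, against 179, 25.3 and 188 CPM in controls, low in the libraries numbered 2 like Sema3d.

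Low paralogs of the members are named here after their values were seen. Upk3bl, named for its likeness to Upk3b, had 6, 20 and 1 counts in Foxp1-deficient libraries and 0 counts in each control. Mslnl had 0.119, 8.34 and 1.37 CPM in Foxp1-deficient libraries and 0.63, 0 and 1.32 CPM in controls, and Bnc2 0.309 to 2.11 CPM in Foxp1-deficient libraries and 1.98 to 4.90 CPM in controls. Cd63, a widely expressed tetraspanin gene, averaged 344 ± 77.1 CPM in Foxp1-deficient libraries and 365 ± 112 CPM in controls (SD, n = 3 each, TMM-scaled).

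Anxa8, an annexin gene on the mesothelial list named after its values were seen, had 28.8, 11.4 and 31.2 CPM in Foxp1-deficient libraries 1, 2 and 3, against 0.63, 6.48 and 2.58 CPM in controls, without overlap between the groups, as for 2.64% of genes in that direction with TMM scaling. Its log2 fold change was 2.72 (SE 0.91) and did not pass edgeR's test (adjusted p = 0.9998). Of the 13 tested genes on that list, 2 were without overlap in the higher direction and 2, Aldh1a2 and Rspo1, in the lower with TMM scaling. Over all genes tested the shares were 2.64% and 2.11%.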
